A study of Arabidopsis thaliana with 6 samples.

Results

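The core cell cycle machinery was examined in nuclei of the AP3 and AG domains of the young Arabidopsis flower. It was taken as 40 genes chosen by gene identifier out of the 33341 genes listed in the count files. They are 10 D-type cyclins grouped here as G1, 6 cyclins of the A2 and A3 groups as S, 14 genes grouped as G2/M (CYCA1-1, the B-type cyclins and the 4 CDKB kinases), the kinase CDKA-1 by itself, and 9 inhibitors (KRP1 to KRP7, SIM and SMR1). Cyclins and CDKs are written with a hyphen, so that CYCB1-1 stands for the gene RefSeq lists as CYCB1;1.

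The tested nuclei came from pAP1::AP1-GR ap1 cal plants carrying pAP3:NTF(GFP), in which the AP3 promoter drives a GFP-tagged nuclear envelope protein (3 libraries, X13, X16 and X74). They were set against nuclei from pAP1::AP1-GR ap1 cal plants carrying iAG:NTF(GFP), in which the second intron of AG with a minimal 35S promoter drives that protein (3 libraries, X14, X71 and X26). Both lines share the ap1 cal mutations, the AP1-GR fusion used to synchronize flower formation and the Ler background, and both were induced daily with 2 µM dexamethasone and sampled at day 4, at about stage 5. GFP-positive nuclei were gated on their DAPI signal, which reports DNA content, and nuclear RNA was sequenced. A library thus represents nuclei in which a reporter was active, and the sort cannot separate nuclei of the organs in which both reporters are on.

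D-type cyclins bind CDKA-1 in G1 and phosphorylate RBR1, which frees E2F factors to switch on genes of DNA replication. A2- and A3-type cyclins act around S phase, and CYCA1-1, the B-type cyclins and the plant-specific CDKB kinases act in G2 and mitosis, where many genes carry the MSA element that MYB3R factors bind. KRP proteins inhibit CDKs bound to D-type cyclins, and SIM and its SMR relatives restrain mitotic CDK activity, which is associated with endoreduplication (DNA replication without division) in the leaf epidermis and trichomes. In young floral buds most cells are still dividing, and cell cycle genes are commonly used there as markers of division.

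The promoters are shown first because they carry the 2 short motifs tied to these phases. The 250 bases before each annotated gene start were read from the RefSeq TAIR10.1 assembly, whose gene coordinates were identical to those of the count files for all 40 genes, and they are the Col reference and not the Ler sequence of the plants. The motifs searched on both strands were the MSA core AACGG and the E2F site, taken as any of TTTCCCGC, TTTCCCGG, TTTCGCGC, TTTCGCGG, TTTGCCGC, TTTGCCGG, TTTGGCGC and TTTGGCGG, with overlapping matches of either motif counted each. The first 3 sequences below belong to B1-type cyclins with several MSA cores, of which CYCB1-1 and CYCB1-3 were higher in AP3 nuclei and CYCB1-2 had the highest level of all members per length. The last is KRP1, the member with the most MSA cores. Each is written 5′ to 3′ on the strand of its gene, which is the minus strand for all 4, so that the gene starts just after the last base. Capitals mark MSA cores (CCGTT is AACGG read on the other strand).
CYCB1-1: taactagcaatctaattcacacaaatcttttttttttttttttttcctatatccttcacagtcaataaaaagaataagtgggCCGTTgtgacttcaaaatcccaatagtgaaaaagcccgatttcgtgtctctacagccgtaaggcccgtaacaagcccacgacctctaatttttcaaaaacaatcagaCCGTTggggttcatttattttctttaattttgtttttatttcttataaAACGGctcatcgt
CYCB1-2: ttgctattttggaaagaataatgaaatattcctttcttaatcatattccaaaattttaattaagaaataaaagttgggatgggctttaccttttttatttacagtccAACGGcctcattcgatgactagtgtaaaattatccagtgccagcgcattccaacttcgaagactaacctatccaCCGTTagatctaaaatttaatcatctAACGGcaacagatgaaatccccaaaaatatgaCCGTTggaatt
CYCB1-3: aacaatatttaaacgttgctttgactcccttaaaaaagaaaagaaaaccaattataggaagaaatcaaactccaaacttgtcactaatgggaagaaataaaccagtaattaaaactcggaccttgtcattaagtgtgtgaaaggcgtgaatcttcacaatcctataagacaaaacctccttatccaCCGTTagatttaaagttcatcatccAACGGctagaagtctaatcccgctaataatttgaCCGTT
KRP1: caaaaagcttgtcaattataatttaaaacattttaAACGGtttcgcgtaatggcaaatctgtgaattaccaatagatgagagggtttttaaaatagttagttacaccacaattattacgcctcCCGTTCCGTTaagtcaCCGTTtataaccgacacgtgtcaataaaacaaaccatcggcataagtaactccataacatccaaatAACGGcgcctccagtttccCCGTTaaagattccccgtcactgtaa

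These stretches lie at chr4:17624309-17624558 for CYCB1-1, chr5:1861704-1861953 for CYCB1-2, chr3:3627274-3627523 for CYCB1-3 and chr2:9978091-9978340 for KRP1. CYCB1-1 and CYCB1-3 had 3 MSA cores each, CYCB1-2 had 4 and KRP1 had 6. The core nearest the start lay 9 bases before it in CYCB1-1, 7 in CYCB1-2, 1 in CYCB1-3 and 22 in KRP1. An MSA core was found in 8 of the 14 G2/M promoters (57.1%), against 20.4% of the 33054 promoters of nuclear genes, and 7 of the 14 (50%) had at least 2, against 3.51% of all promoters. The other G2/M promoters with at least 2 cores were those of CYCA1-1, CYCB2-1, CYCB2-2 and CYCB2-3, and CDKB2-2 had 1, while CYCB1-4, CYCB2-4, CYCB3-1, CDKB1-1, CDKB1-2 and CDKB2-1 had none in this window. Outside G2/M, cores were found in 1 of 10 D-type cyclins (CYCD3-1) and 2 of 6 S cyclins (33.3%, CYCA2-1 and CYCA3-1). They were also found in 4 of 9 inhibitors (44.4%, KRP1, KRP2, KRP3 and KRP7). At least 2 cores were found in 2 of the 6 S cyclins and 3 of the 9 inhibitors, 33.3% of each. An E2F site was present in 0 of the 14 G2/M promoters, in 2.64% of all promoters and in 11 of 20 promoters (55%) of a list of replication genes. These counts describe letters in a fixed window and were not tested for enrichment.

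Each library held between 28808948 (X14) and 42089156 (X13) counts, of which 2.39% to 4.56% fell on organelle genes and were left out. X74 and X71 had reads on 26453 and 26225 nuclear genes, against 22668 to 23174 in the other 4, and 1 of them is an AP3 and the other an AG library. Of 20013 genes tested, 1554 (7.76%) had a p under 0.05 by edgeR's quasi-likelihood test once adjusted over all genes by the method of Benjamini and Hochberg, 273 (1.36%) higher and 1281 (6.4%) lower in AP3 libraries, and the median log2 fold change was 0.03. AP3 transcripts were higher in AP3 libraries (log2 fold change 2.36, adjusted p = 0.0216). AG transcripts went against the labels, at 41.5 to 94.3 CPM (counts scaled to library size) in AP3 libraries and 14.2 to 41.2 CPM in AG libraries (edgeR adjusted p = 0.141). These ranges did not overlap, and DESeq2 called AG higher in AP3 libraries, as it did AP3, PI and UFO. Groups are therefore called by the reporter that marked them. The study calls libraries of 1 domain biological replicates, while the labels do not say which plants each came from, and p-values measure the spread between these libraries.

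Vascular markers were lower and epidermal markers higher in AP3 libraries. The called markers were 6 of 8 for xylem, 5 of 6 for phloem and all 4 for procambium, all lower, and 2 of 5 for epidermis (ATML1 and PDF1), both higher. Summed over each list, the AP3 libraries ranged from 39.1 to 45.4 CPM for xylem, 82.0 to 112 CPM for phloem, 69.3 to 88.1 CPM for procambium and 3755 to 4853 CPM for epidermis. The AG libraries ranged from 141 to 218 CPM for xylem, 225 to 260 CPM for phloem, 280.0 to 374 CPM for procambium and 1047 to 2267 CPM for epidermis. No gene of these 4 lists was at 0 in any library. Mesophyll markers, 0 of 6 called by edgeR (1 at an unadjusted p under 0.05 and 1 called by DESeq2), summed to 1842 to 3034 CPM in AP3 and 2001 to 2845 CPM in AG libraries. Carpel markers summed to 9.30 to 21.0 CPM in AP3 and 4.88 to 16.98 CPM in AG libraries. Of 4 carpel markers 2 were tested and 0 called by edgeR, while 1 had an unadjusted p under 0.05 and DESeq2 called 1 lower. In 1 of them all AP3 values lay below all AG values (log2 fold change −1.25). The part of all these markers in the cell cycle differences that follow was not tested. In such bulk libraries fewer nuclei of a type or phase and less RNA per nucleus cannot be told apart.

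Of the 40 members, 39 passed the filter on low counts, and 5 rose and 1 fell in AP3 nuclei. CYCD3-3, CYCB1-1, CYCB1-3, CYCA2-4 and CYCD3-2 were higher and KRP5 was lower, which is 5 of 39 against a background of 1.36% for higher genes and 1 of 39 against 6.4% for lower genes. The values of the 3 AP3 libraries lay wholly above those of the AG libraries for 14 members and wholly below for 4. Across all genes tested 25.9% had domains that did not overlap, 10.9% with AP3 above and 15% with AP3 below. The median log2 fold change of the 39 was 0.21, with 25 above 0 and 14 below, and 53.2% of all genes tested were above 0. An unadjusted p under 0.05 was found for 18 members, against 19.7% of all genes. On the 4 libraries of the authors' variance stabilized table (X13, X16, X14 and X26), edgeR called none of the 6, with adjusted p-values from 0.0508 (CYCD3-3) to 0.257 (KRP5). There, 10 members had an unadjusted p under 0.05, and the share of all genes was not counted for that fit. DESeq2 on those libraries, an alternative chosen after seeing the data, called 4 of the 6, CYCD3-3, CYCD3-2, CYCA2-4 and CYCB1-1. The number of all genes it called there was not counted either, so neither count has a background. By class, the medians were −0.19 for G1, 0.20 for S, 0.51 for G2/M and −0.19 for the inhibitors.

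**Figure D1:**
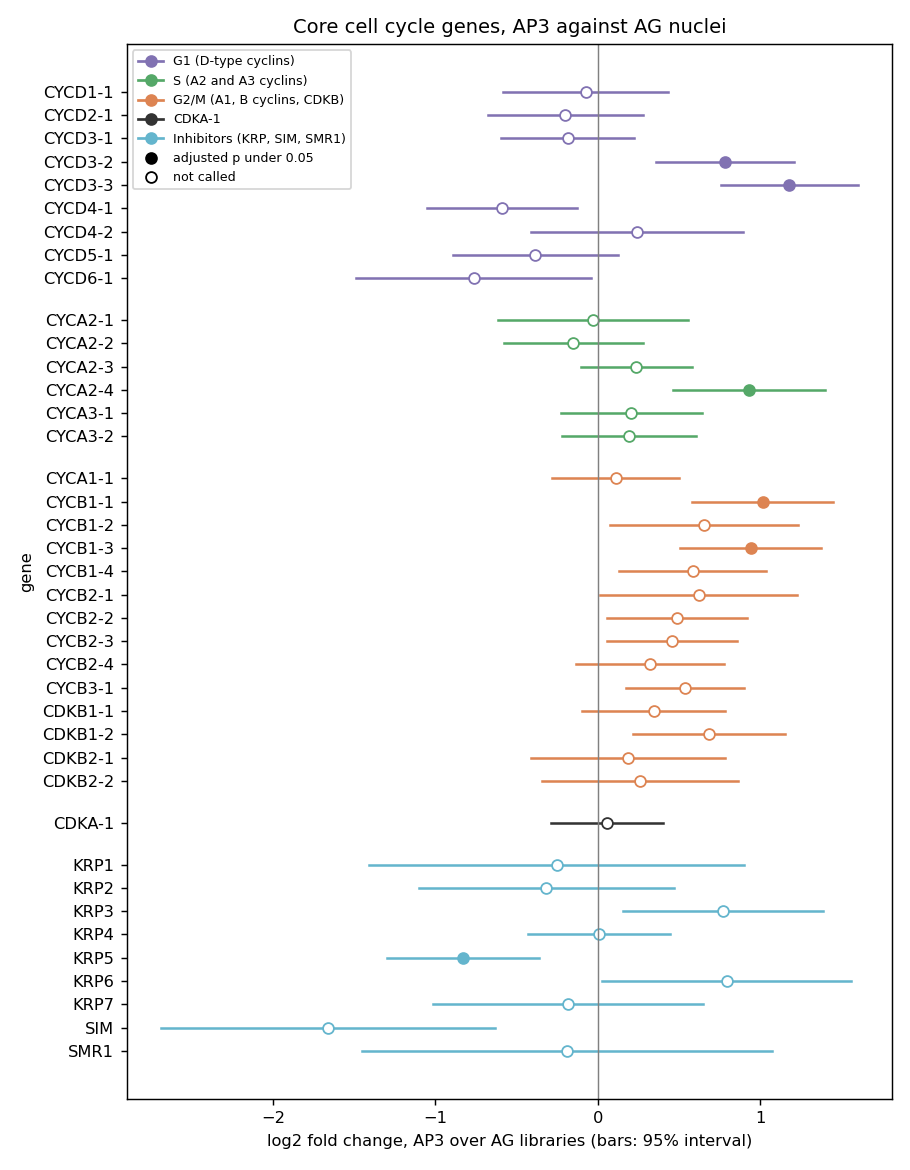
Log2 fold change of AP3 over AG libraries (x axis) for the 39 members tested (y axis), coloured by class, with lines for the 95% interval and filled points for an adjusted p under 0.05. All 14 G2/M points lie above 0, between 0.11 and 1.01, while the D-type cyclins run from −0.76 to 1.18 and the inhibitors from −1.66 to 0.79.

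Per length, the levels of the members spanned from 153 CPM per kb of annotated gene (introns included) for CYCB1-2 to 0.0451 CPM per kb for CYCD7-1, averaged over all 6 libraries. CYCB1-2 was followed by CYCD1-1 at 93.6 CPM per kb and KRP2 at 80.1 CPM per kb, and then by CYCD3-2, CYCD3-1 and CYCD3-3 between 62.4 and 68.7 CPM per kb. The range over libraries of CYCB1-2, 88.7 to 204 CPM per kb, overlapped that of CYCD1-1, 67.9 to 113 CPM per kb, and the ranges of the 3 CYCD3 genes also overlapped each other. CDKA-1, the main CDK of the plant cell cycle, stood at 28.1 CPM per kb, among the A1- and B-type cyclins. The least abundant of the members tested were SMR1 at 0.955 CPM per kb and KRP1 at 2.34 CPM per kb.

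The D-type cyclins divided among themselves, with 2 of the 3 CYCD3 genes higher in AP3 nuclei and no other member of the class called. CYCD3-3 (AT3G50070, chromosome 3 of TAIR10, 18565134 to 18566834) had 139, 157 and 146 CPM in the AP3 libraries X13, X16 and X74, against 79.7, 60.0 and 55.8 CPM in the AG libraries X14, X71 and X26, an order of libraries kept below. The domains were far apart, and the log2 fold change was 1.18 ± 0.19 (SE), a 2.26-fold difference with an adjusted p of 0.00615 in edgeR's test. CYCD3-2 (AT5G67260, chromosome 5, 26836139 to 26839597) had 348, 278 and 275 CPM in AP3 libraries, against 188, 156 and 181 CPM in AG libraries. Its lowest AP3 value was above its highest AG value, and the log2 fold change was 0.78 ± 0.19 (SE, edgeR adjusted p = 0.0356). The CYCD3 genes are known to respond to cytokinin and to prolong the dividing phase of cells in lateral organs. The remaining gene of the group, CYCD3-1 (AT4G34160), had 126, 154 and 127 CPM in AP3 libraries, against 179, 144 and 141 CPM in AG libraries, and these ranges overlapped (log2 fold change −0.19, 95% interval −0.59 to 0.22).

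Set against CYCD3-1 in the same library, CYCD3-3 counts were 1.10, 1.02 and 1.15 times those of CYCD3-1 in AP3 libraries and 0.444, 0.418 and 0.396 times in AG libraries. CYCD3-2 counts were 2.76, 1.80 and 2.16 times those of CYCD3-1 in AP3 libraries and 1.05, 1.09 and 1.28 times in AG libraries. These ratios, which do not depend on the normalization, were chosen after the values were seen and carry no test. The call of CYCD3-3 held when 1 library at a time was left out and was lost on the 4 libraries of the authors' table (adjusted p = 0.0508), whereas that of CYCD3-2 was lost without X13 (adjusted p = 0.0897), X16 (0.0909), X14 (0.0873), X71 (0.149) or X26 (0.0663). Of the CYCD3-2 span, 6.36% lies under an antisense gene, from which reads were not assigned.

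Below the AG level, without reaching the threshold, were CYCD4-1 and CYCD6-1. CYCD4-1 (AT5G65420) had 23.0, 37.2 and 34.2 CPM in AP3 libraries, against 50.3, 47.3 and 44.7 CPM in AG libraries, with no overlap (log2 fold change −0.59, edgeR adjusted p = 0.134). CYCD6-1 (AT4G03270), known in the root as a target of SHR and SCR in formative divisions, had 6.62, 5.49 and 3.66 CPM in AP3 libraries, against 8.96, 10.8 and 6.98 CPM in AG libraries (log2 fold change −0.76, adjusted p = 0.223). Its domains did not overlap either, and 42.0% of its span is shared with a gene on the other strand, so that its counts cover part of it. CYCD1-1, CYCD2-1 (AT2G22490), CYCD4-2 (AT5G10440) and CYCD5-1 (AT4G37630) overlapped between domains, with log2 fold changes from −0.39 to 0.24. CYCD1-1 (AT1G70210), the most abundant D-type cyclin per length, had 234, 318 and 391 CPM in AP3 libraries and 310.5, 317 and 367 CPM in AG libraries. CYCD7-1 (AT5G02110), known for its role in the stomatal lineage, was not tested, with 0, 0 and 4 reads in AP3 libraries and 1, 9 and 2 reads in AG libraries.

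**Figure D2:**
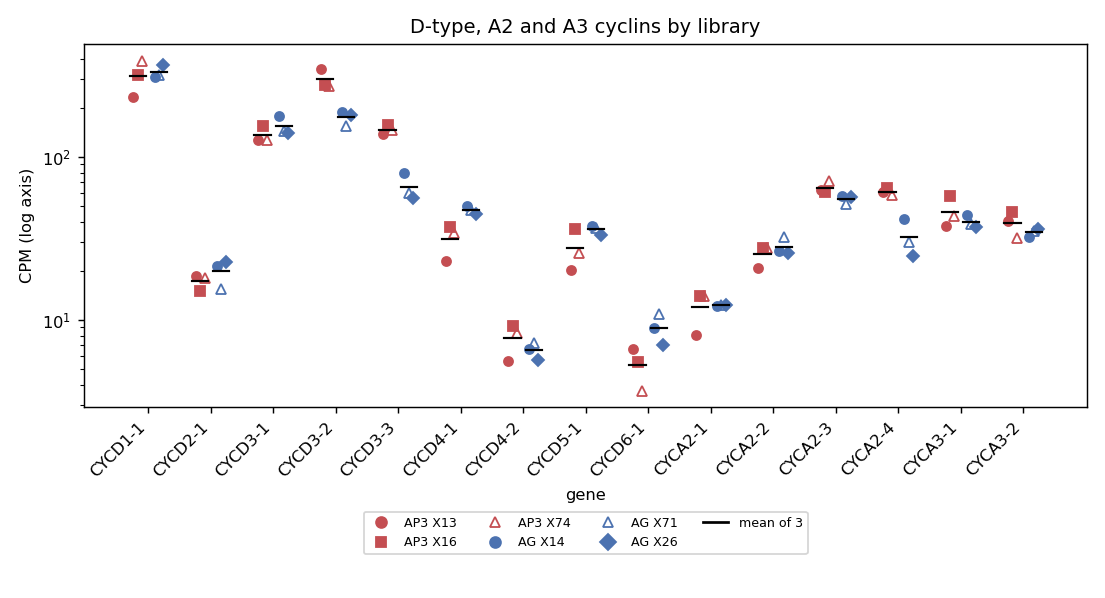
CPM on a log axis (y axis) of the 9 D-type cyclins tested and the 6 A2- and A3-type cyclins (x axis), with 1 point for each library, AP3 in red on the left of each gene and AG in blue on the right, and a black line for the mean of 3. CYCD3-3, CYCD3-2 and CYCA2-4 have all AP3 points above all AG points by a clear gap, and CYCD3-1 does not.

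Among the S-phase cyclins, CYCA2-4 rose and the other 5 were not called. CYCA2-4 (AT1G80370, chromosome 1, 30213705 to 30217102) had 60.6, 64.3 and 58.4 CPM in AP3 libraries, against 41.3, 30.2 and 24.6 CPM in AG libraries. The 3 AP3 values lay close together and above every AG value, with a log2 fold change of 0.93 ± 0.21 (SE, edgeR adjusted p = 0.0260). A2-type cyclins partner CDKB1-1 in holding back endoreduplication. CYCA2-3 (AT1G15570), its close relative, had 62.4, 61.1 and 70.9 CPM in AP3 libraries, against 57.2, 51.3 and 56.6 CPM in AG libraries, without overlap but with a log2 fold change of only 0.24 (adjusted p = 0.468). CYCA2-4 counts were 0.970, 1.05 and 0.823 times those of CYCA2-3 in AP3 libraries and 0.722, 0.589 and 0.435 times in AG libraries, again a description. CYCA2-1 (AT5G25380), CYCA2-2 (AT5G11300), CYCA3-1 (AT5G43080) and CYCA3-2 (AT1G47210) overlapped between domains and had log2 fold changes from −0.15 to 0.21. CYCA2-4 was no longer called without X13 (adjusted p = 0.0557), X16 (0.0946), X71 (0.0931) or X26 (0.0569).

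The G2/M genes were the class with the most even direction. CYCB1-1 and CYCB1-3 rose, and all 14 had a positive log2 fold change, where 53.2% of all genes tested did, from 0.11 for CYCA1-1 to 1.01 for CYCB1-1, with a median of 0.51 against 0.03 over all genes tested. In 8 of the 14 all AP3 values were above all AG values, where 10.9% of all genes showed this, and 9 had an unadjusted p under 0.05, as did 19.7% of all genes. Each gene's highest value was in an AP3 library (X74 for 8, X16 for 4 and X13 for 2), and its lowest in an AG library (X26 for 10 and X71 for 4). The members of this class are known to peak together in dividing cells, so they are not independent observations.

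CYCB1-1 (AT4G37490, chromosome 4, 17621886 to 17624308), whose promoter is widely used to mark cells in G2 and mitosis, had 108, 87.5 and 99.5 CPM in AP3 libraries, against 58.6, 48.3 and 39.2 CPM in AG libraries. This was a 2.02-fold difference without overlap, with a log2 fold change of 1.01 ± 0.19 (SE, edgeR adjusted p = 0.0133). CYCB1-3 (AT3G11520, chromosome 3, 3625286 to 3627273) had 63.96, 63.3 and 66.3 CPM in AP3 libraries, against 42.9, 29.2 and 28.8 CPM in AG libraries. The AP3 values were nearly equal while X14 stood above the other AG libraries, and the log2 fold change was 0.94 ± 0.19 (SE, edgeR adjusted p = 0.0184). Against CDKA-1 in the same library, CYCB1-1 counts were 1.22, 1.02 and 1.00 times those of CDKA-1 in AP3 libraries and 0.651, 0.539 and 0.468 times in AG libraries. The call of CYCB1-1 was lost without X71 (adjusted p = 0.0521), and that of CYCB1-3 without X16 (0.0641), X71 (0.0746) or X26 (0.0533).

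The other B1-type cyclins pointed the same way with larger spread. CYCB1-4 (AT2G26760) had 61.0, 70.7 and 65.4 CPM in AP3 libraries, against 56.2, 35.2 and 40.05 CPM in AG libraries (log2 fold change 0.58, adjusted p = 0.130). CYCB1-2 (AT5G06150), the most abundant member, had 382, 495 and 489 CPM in AP3 libraries, against 390.4, 262 and 215 CPM in AG libraries. Its X14 value lay between those of X13 and the other AP3 libraries, so the domains overlapped, and the log2 fold change of 0.65 ± 0.25 (SE) was not called (edgeR adjusted p = 0.188).

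The B2- and B3-type cyclins, which with the B1 type promote entry into and passage through mitosis, gave none called. CYCB2-2 (AT4G35620) had 60.5, 71.7 and 78.1 CPM in AP3 libraries, against 58.7, 51.3 and 39.99 CPM in AG libraries (log2 fold change 0.49, adjusted p = 0.188). CYCB2-3 (AT1G20610) had 98.7, 95.4 and 95.9 CPM in AP3 libraries, against 78.7, 55.8 and 76.7 CPM in AG libraries (log2 fold change 0.46, adjusted p = 0.187). Neither overlapped between domains, and the AP3 values of CYCB2-3 were nearly equal. CYCB3-1 (AT1G16330) had 37.1, 42.4 and 42.7 CPM in AP3 libraries, against 28.5, 26.04 and 29.8 CPM in AG libraries. It missed the threshold (log2 fold change 0.53 ± 0.16 SE, edgeR adjusted p = 0.0841). Of 15 alternatives 1 called it, DESeq2 (adjusted p = 0.0399), and the edgeR adjusted p rose to 0.393 on the 4 libraries of the authors' table. CYCB2-1 (AT2G17620), CYCB2-4 (AT1G76310) and the A-type CYCA1-1 (AT1G44110) overlapped, with log2 fold changes of 0.62, 0.32 and 0.11.

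The CDKB kinases, which unlike CDKA-1 are themselves made in a cell cycle-dependent manner, were not called by edgeR. CDKB1-2 (AT2G38620) had 16.3, 19.9 and 21.2 CPM in AP3 libraries, against 13.7, 11.1 and 10.9 CPM in AG libraries, with no overlap (log2 fold change 0.69 ± 0.21 SE, edgeR adjusted p = 0.0871, DESeq2 adjusted p = 0.0303). DESeq2 was the only 1 of 15 alternatives to call CDKB1-2, whose edgeR adjusted p was 0.421 on the 4 libraries of the authors' table. Of its span, 17.4% lies under an antisense gene. CDKB1-1 (AT3G54180) had 23.7, 26.9 and 35.0 CPM in AP3 libraries, against 23.0, 23.3 and 21.2 CPM in AG libraries, a bare separation with a log2 fold change of 0.34 (adjusted p = 0.396). CDKB2-1 (AT1G76540) and CDKB2-2 (AT1G20930) overlapped, with log2 fold changes of 0.18 (95% interval −0.41 to 0.78) and 0.26 (−0.34 to 0.86). CDKB2-1 was also the only G2/M gene whose sign turned, to −0.03 without X26 and to −0.01 without X74.

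**Figure D3:**
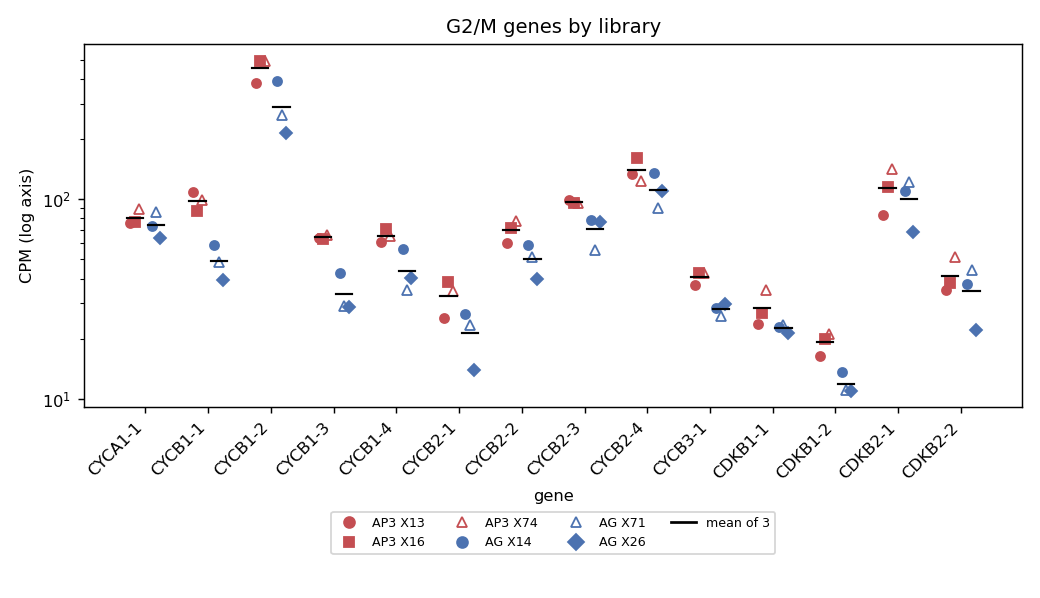
CPM on a log axis (y axis) of the 14 G2/M genes (x axis) by library, AP3 in red on the left of each gene and AG in blue on the right, with black lines for the means of 3. X26 (blue diamond) is the lowest point for 10 genes and X71 (open blue triangle) for 4, and the highest point of every gene is an AP3 library.

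Summed over the 14 genes, the AP3 libraries held 1204, 1401 and 1433 CPM and the AG libraries 1133, 909 and 780.2 CPM, or 1346 ± 124 CPM in AP3 and 940.5 ± 178 CPM in AG (SD, n = 3 each). X14 came close to X13, and the other AG libraries stood clearly lower. The size of the difference depended on which libraries were set against each other. Between X74 and X71, which share the higher number of genes with a read, X74 was above X71 for all 14 genes (median log2 ratio 0.66), while the mean of X13 and X16 was above X14 for 12 of 14 (median 0.20), CDKB2-1 and CDKB2-2 being below. In the same 2 comparisons the AP3 side was higher for 4 and 4 of the 6 S cyclins. It was higher for 5 and 3 of the 9 D-type cyclins tested. The share of all genes was not counted for either comparison. Without X71 no G2/M member was called. The 8 G2/M genes with an MSA core in the promoter window had log2 fold changes from 0.11 to 1.01 (median 0.55), and the 6 without one from 0.18 to 0.69 (median 0.44), a description of ranges that overlap.

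CDKA-1 (AT3G48750, chromosome 3, 18071454 to 18074641), the kinase that acts in every phase, had 88.9, 86.0 and 99.2 CPM in AP3 libraries, against 90.1, 89.5 and 83.7 CPM in AG libraries. The domains overlapped, and the 95% interval of the log2 fold change, −0.29 to 0.40, leaves out differences of the size seen for the called cyclins.

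The inhibitors went in both directions, with 1 of 9 called. KRP5 (AT3G24810, chromosome 3, 9060836 to 9062003) had 17.5, 25.6 and 19.4 CPM in AP3 libraries, against 36.6, 42.8 and 31.7 CPM in AG libraries. It was lower in AP3 nuclei without overlap (log2 fold change −0.83 ± 0.21 SE, edgeR adjusted p = 0.0423). The call was lost without X13 (0.129), X16 (0.0536), X74 (0.102), X14 (0.0946) or X71 (0.143), and with a block for sets of library codes, X13, X14 and X16, then X74 and X71, then X26 alone (0.0530). SIM (AT5G04470), first known for keeping trichomes single-celled, had 0.988, 1.32 and 2.03 CPM in AP3 libraries, against 3.73, 6.70 and 3.30 CPM in AG libraries. These rest on 36, 40 and 76 reads in AP3 libraries and 101, 226 and 105 reads in AG libraries, and 42.7% of the SIM span lies under an antisense gene. The domains did not overlap and the log2 fold change was the lowest of all members at −1.66 ± 0.45 (SE), yet it missed the threshold in edgeR's test (adjusted p = 0.0599). SIM passed it in 4 of 15 alternatives. These were DESeq2 (0.00516) and edgeR with the library code block (0.0407), with every gene with a read tested (0.0398) and without X74 (0.0474). The edgeR adjusted p rose to 0.200 without X16 and to 0.226 without X71.

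KRP3 and KRP6 had the opposite direction. KRP3 (AT5G48820) had 49.3, 37.2 and 46.4 CPM in AP3 libraries, against 32.1, 30.3 and 15.6 CPM in AG libraries (log2 fold change 0.77, edgeR adjusted p = 0.144). KRP6 (AT3G19150), which is known to act in the male germline, had 55.1, 44.7 and 52.0 CPM in AP3 libraries, against 33.5, 40.5 and 13.7 CPM in AG libraries (log2 fold change 0.79, adjusted p = 0.237). In both genes the domains were separate and X26 was far below the other AG libraries. KRP1, KRP2, KRP4 (AT2G32710), KRP7 (AT1G49620) and SMR1 (AT3G10525) overlapped between domains, with log2 fold changes from −0.32 to 0.01. KRP2 (AT3G50630), the most abundant inhibitor per length, had 50.3, 93.7 and 132 CPM in AP3 libraries and 126, 141 and 76.6 CPM in AG libraries, so that the spread inside each domain was larger than the difference between them. KRP1 (AT2G23430), whose promoter is printed above for its 6 MSA cores, had 1.48, 3.65 and 4.47 CPM in AP3 libraries and 5.38, 4.03 and 2.04 CPM in AG libraries. Summed over the 9 inhibitors, the domains were alike in mean, at 254 ± 43.2 CPM in AP3 and 259.7 ± 77.1 CPM in AG (SD, n = 3 each).

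**Figure D4:**
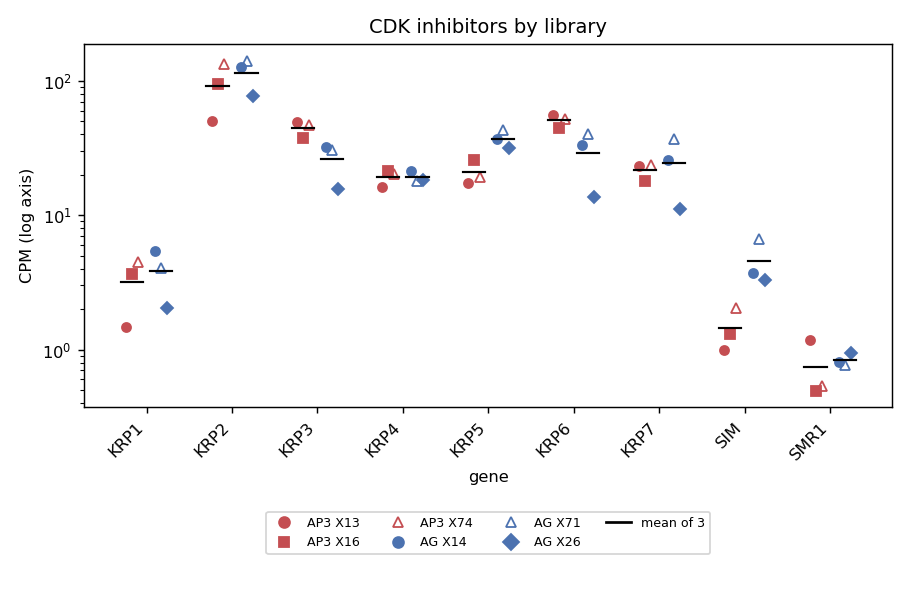
CPM on a log axis (y axis) of the 9 CDK inhibitors (x axis) by library, AP3 in red on the left of each gene and AG in blue on the right, with black lines for the means of 3. KRP5 and SIM have all AP3 points below all AG points, and KRP3 and KRP6 all AP3 points above.

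Other genes of the same pathway were counted in lists of upstream control, replication and mitosis. Of 19 mitosis genes, TPX2, a spindle assembly factor, was called higher, with 181, 180.5 and 206 CPM in AP3 libraries, against 134, 109 and 107 CPM in AG libraries (log2 fold change 0.70, edgeR adjusted p = 0.0427), and 8 had an unadjusted p under 0.05, against 19.7% of all genes tested. The call of TPX2 was lost when any single library was left out. In 9 of the 19 all AP3 values lay above all AG values, against 10.9% of all genes tested. A positive log2 fold change was found for 15 of the 19, against 53.2% of all genes, and the median was 0.37. DESeq2 called 7 of them higher, where it called 588 of all 20013 genes that passed the same filter higher. The list summed to 6082 ± 113 CPM in AP3 and 4341 ± 473 CPM in AG libraries (SD, n = 3 each), with all AP3 libraries above all AG libraries. Most of this sum came from CDC20.1 (means of 2482 CPM in AP3 and 1730 CPM in AG libraries) and CDC20.2 (2008 and 1354 CPM). Neither gene was called (edgeR adjusted p = 0.261 and 0.206), so the sum says little about the rest of the list.

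The lists for the start of the cycle gave no calls. Of 9 genes of the RBR1, E2F, DP and DEL group, 0 were called by edgeR and 0 by DESeq2, and 0 had an unadjusted p under 0.05, with a median log2 fold change of 0.09. Of 20 replication genes (the MCM helicase, ORC, CDC6, CDT1, PCNA and others) 0 were called by edgeR and 0 by DESeq2, 0 had an unadjusted p under 0.05, and the median was 0.09. The replication list summed to 806, 1217 and 824 CPM in AP3 libraries and 978, 910.4 and 901 CPM in AG libraries, with X16 above all others. The D-type cyclins themselves summed to 922, 1011 and 1030 CPM in AP3 libraries and 882, 794 and 858 CPM in AG libraries. Their higher sum came from CYCD3-2 (means of 301 CPM in AP3 and 175 CPM in AG libraries) and CYCD3-3 (147 and 65.1 CPM). Of the 9 tested, 6 had a log2 fold change below 0 (median −0.19). The A2- and A3-type cyclins summed to 230.3, 270.2 and 246 CPM in AP3 libraries and 214, 199.5 and 193 CPM in AG libraries. Whether the G2/M and replication lists differ from each other was not tested.

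The remaining lists were also without calls in edgeR. Of 6 regulators of mitotic transcription (4 MYB3R genes, SCL28 and TSO1) 0 were called by either tool and 0 had an unadjusted p under 0.05. A list of 6 genes held CDK-activating or inhibiting kinases and the cyclin CYCH-1, with 0 called and 1 at an unadjusted p under 0.05. DESeq2 called 1 of these 6, and all 6 log2 fold changes were above 0 (median 0.35). Of 12 genes of the APC/C, its activators and endocycle control 0 were called by edgeR and 0 by DESeq2, and 3 had an unadjusted p under 0.05. Of the other SMR genes 6 of 7 were tested, with 0 called, 1 with an unadjusted p under 0.05 and 1 called lower by DESeq2. Of 4 other A- and B-type cyclins 3 were tested, with 0 called, 1 with an unadjusted p under 0.05 and 1 called lower by DESeq2. In this small list 2 of the 3 log2 fold changes were below 0, from −1.11 to 0.15 (median −0.34). Over all genes tested 53.2% were above 0, and 3 genes are too few to give a direction. The list summed to 51.4, 70.0 and 80.2 CPM in AP3 libraries, all below the 85.8, 88.4 and 107 CPM in AG libraries.

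**Figure D5:**
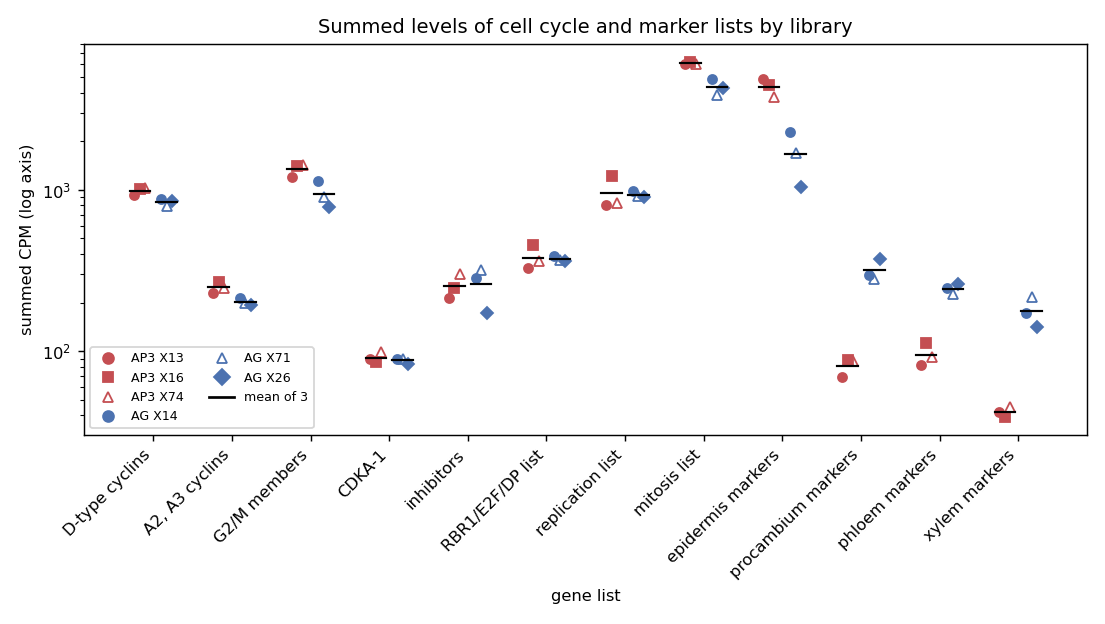
Summed CPM on a log axis (y axis) of the member classes, other cell cycle lists and tissue marker lists (x axis) by library, AP3 in red on the left and AG in blue on the right, with black lines for the means of 3. The D-type, A2 and A3, and G2/M members and the mitosis list have all AP3 points above all AG points, the inhibitors, the RBR1/E2F/DP and replication lists and CDKA-1 do not, and the epidermis and vascular markers differ between domain means by a larger ratio than any cell cycle list. Sums follow the most abundant genes of a list, such as CDC20.1 and CDC20.2 for mitosis. Of the 9 D-type cyclins tested, 6 had a log2 fold change below 0.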

How the data were processed

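RNA was measured in 6 libraries of sorted nuclei, 3 AP3 and 3 AG. After trimming with Trimmomatic, STAR 2.7.0b placed reads on TAIR10 and only unique hits were kept. The authors deposited for every library an unnormalized count of fragments over each gene. The headers of the deposited count files give featureCounts 1.6.0 run over whole genes, introns included, without strand, and pairs overlapping several genes were not assigned, so the 12 members overlapped by other genes are counted in part. The authors also deposited log2-scale variance stabilized values (DESeq2 1.24.0) for 4 libraries, X13, X16, X14 and X26, used here as an alternative only.

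Nuclear genes that exceeded 10 reads in 2 or more libraries were tested with edgeR 4.0.16 (quasi-likelihood, TMM, R 4.3.3), with Benjamini-Hochberg adjustment over 20013 genes. CPM use TMM-scaled library sizes. Standard errors were back-calculated from the F statistic. Replicates differed by more than counting error (chi-square per degree of freedom 41.1 to 185). Scripts were tested on simulated data. Alternatives were DESeq2 1.42.0, other scalings and filters, organelle genes kept, a library code block, the 4 libraries of the authors' table and the omission of single libraries. All members are named, called or non-overlapping ones with every library's value, as are called genes of the other lists. The members and lists were chosen with earlier results of these data known. One promoter sequence is not reported here.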

Additional observations from a re-analysis of the deposited data

How the results depend on the processing

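Across 15 alternatives the signs of the 6 called members did not change. Scaling by RLE, upper quartile or library totals, filterByExpr and keeping organelle genes called the same 6. DESeq2 called 2435 genes in all and 588 higher, with 4 G2/M members higher and 2 members lower, both inhibitors (2), and it called 7 mitosis genes, 1 CDK-activation gene, 1 other SMR gene and 1 other cyclin. Testing every gene with a read called 444 genes higher, 2 members lower, both inhibitors (2), 3 mitosis genes, 1 other SMR gene and 1 other cyclin. Upper quartile factors, library totals and the library code block each left 0 mitosis genes called, and library totals called 1 other SMR gene. On the 4 libraries of the authors' table edgeR called 1022 genes, 75 of them higher, and 0 members higher and 0 lower (0 in G1, 0 in S, 0 in G2/M, 0 inhibitors), 0 mitosis genes and 1 other cyclin, with 10 members at an unadjusted p under 0.05 (share of all genes not counted). DESeq2 on the same 4 libraries, an alternative chosen after seeing the data, called CYCA2-4, CYCD3-3, CYCB1-1 and CYCD3-2 (share of all genes not counted). All 14 G2/M log2 fold changes stayed positive there. Leaving out one library gave 737 to 1480 genes called, 86 to 276 higher and 651 to 1262 lower, 1 to 5 members higher and 0 to 1 lower. By class these were 1 to 2 higher for G1, 0 to 1 for S, 0 to 2 for G2/M, 0 to 1 lower for inhibitors, 0 to 0 mitosis genes higher and 0 to 1 other cyclins lower. The G2/M median then ranged from 0.43 to 0.60 and that of the inhibitors from −0.53 to −0.01. The causes of these changes were not tested. Fits on fewer libraries have less power by construction, and the estimates moved as well. On the 4 libraries of the authors' table the edgeR log2 fold change went from −0.83 to −0.67 for KRP5. It went from 0.94 to 0.82 for CYCB1-3 and from 0.78 to 0.76 for CYCD3-2. No paired analysis was possible because the labels give no replicate numbers. KRP5 was lost with the library code block, in which X26 is alone (adjusted p = 0.0530), and SIM was called there (0.0407). SIM, SMR1, KRP1 and CYCD7-1 rested on the fewest reads, and what share of their error is counting error was not tested.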
